A study of Mus musculus with 10 samples.

Results

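The collagen chains are the genes whose products wind around each other into the trimers of the extracellular matrix. They were taken as the transcript clusters whose platform annotation names 1 gene only, with a symbol made of Col, a type number and a chain number, and a gene with several clusters was represented by the brightest. The rule gave 44 genes among 19938 genes with a cluster of their own, from 46 clusters. Of these 44 genes, 11 code for fibrillar chains, 8 for chains of basement membranes and 25 for other types. The members were compared between hearts of E10.5 mouse embryos with CAR (CAR +/+, WT) and without it (CAR -/-, CAR KO). CAR, the coxsackievirus and adenovirus receptor, is a cell adhesion molecule of the embryonic heart that is encoded by Cxadr. The knockout is constitutive, so that every cell of the embryo lacked CAR from the start, and homozygous embryos of such lines die around midgestation. Hearts of neither genotype were treated. RNA of 3 pooled hearts per sample was hybridised to Affymetrix Mouse Gene 1.0 ST arrays, with 5 samples and 15 hearts per genotype. The labels do not say whether the samples came from separate litters, so that p-values measure the spread between these samples.

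Fibrillar collagens form the load-bearing fibres of connective tissue, and in the embryonic heart they are made above all by the mesenchyme of the cushions and by cells derived from the epicardium. Type IV collagen forms a sheet-like network with laminins and nidogens, the basement membrane, under the endocardium and around cardiomyocytes. Other types decorate fibrils, build beaded microfilaments or span the plasma membrane. Some chains assemble with partner chains of other genes, and some partner genes, such as those of type IV, lie side by side.

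The promoters of Col4a1 and Col4a2, of Col4a5 and Col4a6, and of Col1a2 are shown, which are among the partner chains described further on. Those of Col4a3 and Col4a4 are not shown, and Col1a1 had no window. Col4a1 and Col4a2 lie head to head on chromosome 8, and their RefSeq annotations in GRCm38.p6 share 85 bases. Their promoter windows, from 250 bases before to 50 bases after each start, lie at chr8:11312777-11313076 on the minus strand and chr8:11312555-11312854 on the plus strand and share 78 bases. Col4a5 and Col4a6 lie on chromosome X, with 1274 bases between their annotations, and their windows lie at chrX:141475169-141475468 on the plus strand and chrX:141474027-141474326 on the minus strand. The window of Col1a2 lies at chr6:4505368-4505667 on the plus strand. The sequences are those of RefSeq, written 5′ to 3′ along the gene, and capitals mark CCAAT and GGGCGG on either strand.
Col4a1: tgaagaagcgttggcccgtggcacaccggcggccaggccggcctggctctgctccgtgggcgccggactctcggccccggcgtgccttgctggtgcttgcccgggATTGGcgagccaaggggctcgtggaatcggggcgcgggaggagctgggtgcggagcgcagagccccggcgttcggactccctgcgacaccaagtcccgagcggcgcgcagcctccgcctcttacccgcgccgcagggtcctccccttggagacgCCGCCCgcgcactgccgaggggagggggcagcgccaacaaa
Col4a2: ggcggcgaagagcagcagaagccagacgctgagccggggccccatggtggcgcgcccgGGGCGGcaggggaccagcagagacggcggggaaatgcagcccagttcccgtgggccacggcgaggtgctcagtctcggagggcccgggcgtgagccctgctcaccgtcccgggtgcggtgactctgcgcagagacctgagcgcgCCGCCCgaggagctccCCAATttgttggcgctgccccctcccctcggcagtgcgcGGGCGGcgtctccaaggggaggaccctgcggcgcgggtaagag
Col4a5: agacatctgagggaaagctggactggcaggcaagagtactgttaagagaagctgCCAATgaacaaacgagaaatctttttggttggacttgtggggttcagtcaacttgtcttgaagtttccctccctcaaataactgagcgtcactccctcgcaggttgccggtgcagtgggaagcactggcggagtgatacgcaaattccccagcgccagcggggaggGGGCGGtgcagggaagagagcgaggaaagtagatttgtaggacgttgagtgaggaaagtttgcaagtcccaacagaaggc
Col4a6: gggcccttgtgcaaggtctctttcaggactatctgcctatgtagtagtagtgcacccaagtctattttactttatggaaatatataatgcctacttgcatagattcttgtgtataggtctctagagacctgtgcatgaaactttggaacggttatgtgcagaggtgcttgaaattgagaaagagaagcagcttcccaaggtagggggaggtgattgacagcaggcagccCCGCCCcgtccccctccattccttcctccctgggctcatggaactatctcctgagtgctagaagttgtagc
Col1a2: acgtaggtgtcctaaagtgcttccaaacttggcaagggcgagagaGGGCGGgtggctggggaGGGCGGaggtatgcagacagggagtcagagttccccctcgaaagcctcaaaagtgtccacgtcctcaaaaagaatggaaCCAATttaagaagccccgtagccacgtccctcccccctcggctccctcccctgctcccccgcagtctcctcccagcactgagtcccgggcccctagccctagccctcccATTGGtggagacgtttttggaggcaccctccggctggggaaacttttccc

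A window was found for 35 of the 44 genes (38 windows). CCAAT, searched on both strands, stood in 13 of the collagen windows (34.2%) and in 37.4% of all 32851 windows of the same length. GGGCGG stood in 23 collagen windows (60.5%) and in 35.7% of all windows. TATAAA stood in 5 collagen windows (13.2%) and in 13.6% of all windows, and in none of the 5 windows shown. The Col1a2 window held 2 matches to each of CCAAT and GGGCGG, and the Col4a6 window held no match to CCAAT. A match is a description of the letters and not a binding site.

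Levels are log2 signals as deposited, 1 value per cluster and sample, with array medians between 7.65 and 7.73. A level is compared only between samples of the same gene, because probes differ in their response. The targeted gene separated the genotypes. Cxadr had a mean of 8.38 (SD 0.18) over the WT samples and of 6.46 (SD 0.17) over the CAR KO samples, n = 5 each, a log2 fold change of -1.91 (SE 0.10, limma adjusted p = 1.40e-05), and it was the only cluster of 28944 called. A level of 6.5 was taken as background, the 95th percentile of 1223 clusters of odorant, vomeronasal and trace amine receptors. The CAR KO mean of Cxadr lay just below this level, as did 3 of its 5 CAR KO samples, so that the measured fold may understate the loss. All 12 cardiomyocyte markers lay above it. Transcripts of liver and yolk sac varied widely in both genotypes: the mean of 15 such genes took values between 7.33 and 8.97 among the WT and between 6.93 and 9.79 among the CAR KO samples. The highest were CAR KO samples 1 and 5, together with samples 2 and 5 of WT. In samples of whole hearts, fewer cells of a type and less RNA per cell cannot be told apart.

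The collagen transcripts did not separate the genotypes. None of the 44 genes was called by limma's moderated test at an adjusted p under 0.05, where 0.00345% of all clusters were called. None had an unadjusted p under 0.05, against 2.4% of all clusters, and the unmoderated test also gave 0 genes at either threshold. In no gene did the 5 WT and 5 CAR KO values lie apart, as they did in 0.359% of clusters. The log2 fold changes ran from -0.19 for Col26a1 to 0.10 for Col4a3, with 19 genes higher and 25 lower in CAR KO, where 43.9% of all clusters were lower. The 95% confidence interval lay within 1.5-fold in either direction for 43 of the 44 genes, beside 97.3% of all clusters, and within 1.2-fold for 18 of them, beside 60.6%. The exception at 1.5-fold was Col1a2. At 43 of the 44 genes the mean level was above background. The exception was Col10a1, the collagen of hypertrophic cartilage, with a mean of 5.93 and a log2 fold change of 0.00, with a 95% interval from -0.24 to 0.23, for which little can be said at this signal. Of the 43 above background, 20 followed the mean of the receptor clusters upwards, as described further on, beside 24.2% of all clusters.

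**Figure D1:**
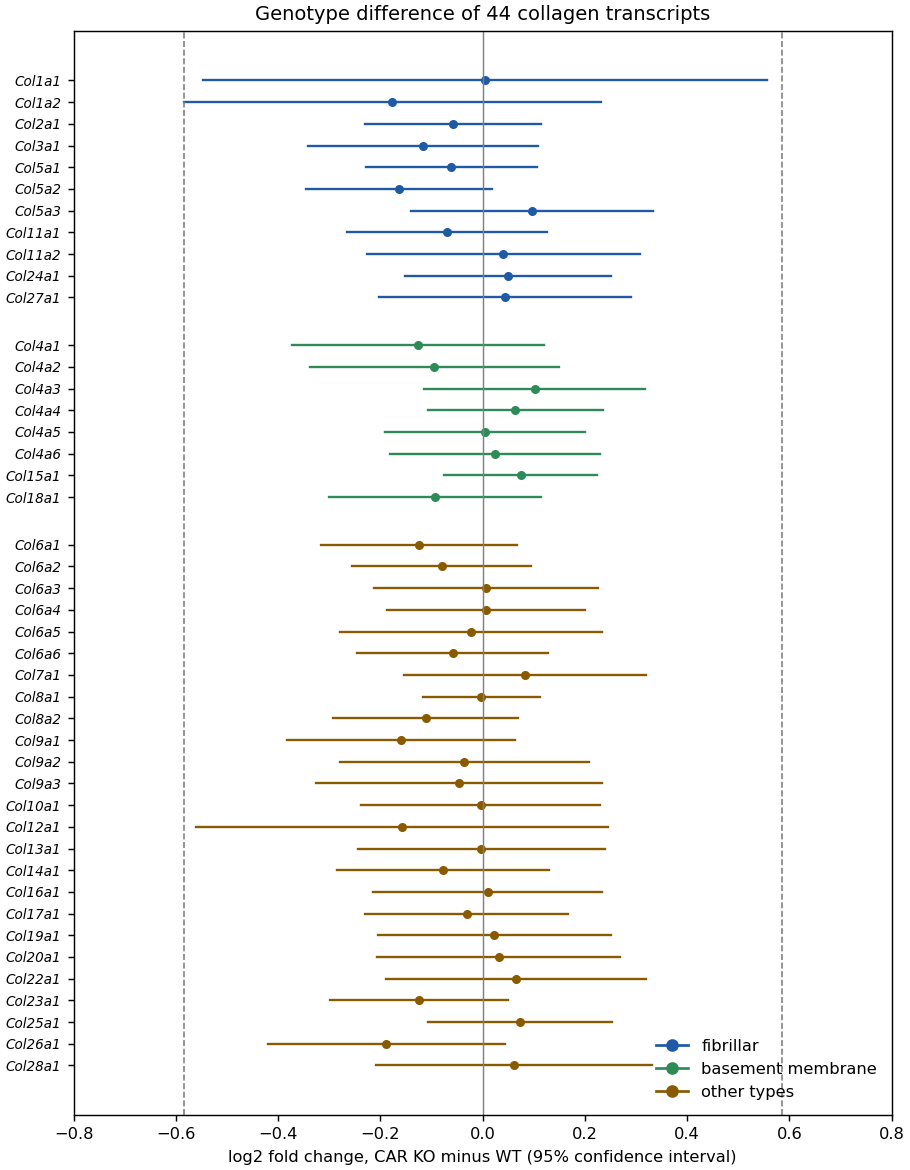
Log2 fold change of CAR KO over WT (x axis) for the 44 collagen genes (y axis), with the 95% confidence interval of limma as bars and limits of 1.5-fold as dashed lines; n = 5 samples per genotype. Every interval crosses 0, and Col1a2 is the only gene whose interval passes a dashed line, at -0.59.

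Among the fibrillar chains, 5 of 11 were higher and 6 lower in CAR KO, with a median log2 fold change of -0.058 beside 0.011 over all clusters. Col1a1 and Col1a2 code for the chains of type I collagen, the main fibre of adult connective tissue. Col1a1 read 10.23, 10.27, 10.58, 10.63 and 10.94 in WT samples 1 to 5 and 10.30, 11.13, 9.96, 10.03 and 11.23 in CAR KO samples 1 to 5. The CAR KO samples held the highest and the lowest values, and the WT values lay within their range. The log2 fold change of Col1a1 was 0.00, with an interval from -0.55 to 0.56 (SD 0.29 in WT and 0.61 in CAR KO). Col1a2 read 10.17, 10.24, 10.43, 10.56 and 10.78 in WT and 10.08, 10.59, 9.91, 9.89 and 10.83 in CAR KO. Samples 2 and 5 were again the high ones of CAR KO, and samples 3 and 4 the low ones. For Col1a2 the fold change on the log2 scale was -0.18, and its 95% confidence interval reached from -0.59 to 0.23, so that its lower end lay at the 1.5-fold limit itself. With quantile normalization, with only clusters that name 1 gene, and with the sample number as a block, all 44 intervals lay within 1.5-fold, that of Col1a2 included.

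Col3a1, the chain of type III collagen, read 10.71, 10.66, 10.90, 10.96 and 10.91 in WT and 10.74, 10.83, 10.35, 10.73 and 10.91 in CAR KO. CAR KO sample 3 was the lowest, and the other values overlapped. Col3a1 had a log2 fold change of -0.12, with a 95% interval from -0.34 to 0.11. Col5a1 and Col5a2 code for type V collagen, which nucleates type I fibrils. Col5a2 had the smallest p of the 44 genes. It read 9.11, 9.22, 9.37, 9.42 and 9.22 in WT and 9.19, 9.20, 8.85, 9.11 and 9.18 in CAR KO, so that CAR KO sample 3 stood lowest and WT samples 3 and 4 highest. The log2 fold change was -0.16 (SE 0.08, unadjusted p = 0.0744 and adjusted p = 1.0 by limma), and the exact two-sided permutation test over samples gave p = 0.0873, where 0.00794 is the smallest it can give. Col5a1 read 8.88, 8.94, 8.85, 8.91 and 8.78 in WT and 8.82, 8.95, 8.56, 8.94 and 8.78 in CAR KO, with CAR KO sample 3 lowest again (log2 fold change -0.06). Col2a1 and Col11a1, chains of cartilage fibrils that the cushions of the heart also make, overlapped as well. Col2a1 read 9.88, 9.58, 9.73, 9.61 and 9.66 in WT and 9.72, 9.63, 9.58, 9.80 and 9.45 in CAR KO (-0.06). Col11a1 read 8.05, 8.15, 8.36, 8.19 and 8.27 in WT and 8.02, 8.42, 7.96, 8.11 and 8.17 in CAR KO (-0.07). The remaining fibrillar chains had log2 fold changes of 0.10 for Col5a3, 0.04 for Col11a2, 0.05 for Col24a1 and 0.04 for Col27a1.

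**Figure D2:**
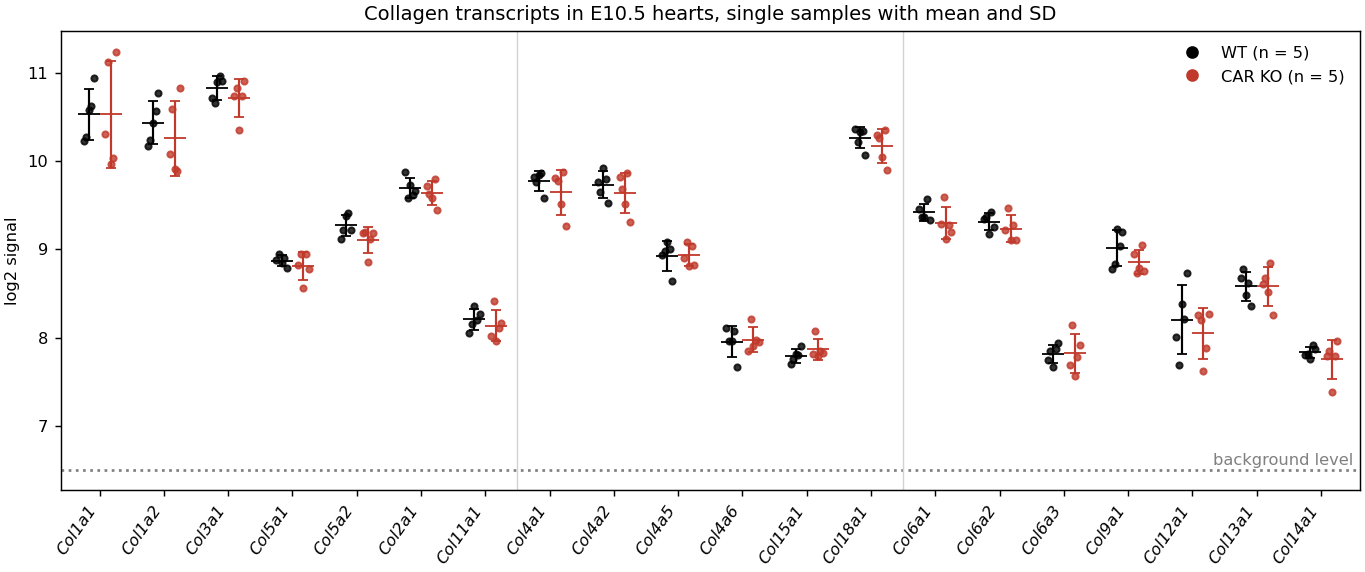
Log2 signal (y axis) of 20 collagen genes in single samples (points), with the mean (long line) and SD (bars) of 5 WT and 5 CAR KO samples; grey lines divide fibrillar, basement membrane and other chains, and the dotted line is the background level of 6.5. The genotypes overlap in every gene, and Col1a1 is the widest, from 9.96 to 11.23 in CAR KO.

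Among the basement membrane chains, 5 of 8 were higher and 3 lower, with a median log2 fold change of 0.014. Col4a1 and Col4a2 code for the chains of the network found under nearly every epithelium and endothelium. Col4a1 read 9.82, 9.76, 9.84, 9.87 and 9.58 in WT and 9.81, 9.77, 9.51, 9.88 and 9.26 in CAR KO. Sample 5 was the lowest of each genotype. For Col4a1 the genotypes differed by -0.13 in log2 signal, with a 95% interval from -0.37 to 0.12. Col4a2 read 9.77, 9.65, 9.92, 9.80 and 9.52 in WT and 9.82, 9.68, 9.52, 9.86 and 9.30 in CAR KO, with the same samples low (-0.09, 95% confidence interval -0.34 to 0.15). Col18a1, whose end is cleaved to endostatin, read 10.37, 10.22, 10.32, 10.34 and 10.07 in WT and 10.30, 10.26, 10.05, 10.35 and 9.89 in CAR KO. It shared the low samples of Col4a1 and Col4a2, and differed by -0.09 in log2 signal, with a 95% interval from -0.30 to 0.11.

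Col4a3 to Col4a6 code for chains of specialised basement membranes such as those of kidney and smooth muscle. Col4a5 read 8.93, 8.98, 9.08, 9.0 and 8.64 in WT and 8.90, 9.08, 8.81, 9.04 and 8.82 in CAR KO (log2 fold change 0.00, 95% confidence interval -0.19 to 0.20). Col4a6 read 8.11, 7.97, 7.96, 8.07 and 7.66 in WT and 7.85, 8.21, 7.90, 7.97 and 7.95 in CAR KO (0.02, 95% confidence interval -0.18 to 0.23). In both genes WT sample 5 was the lowest and the genotypes overlapped. For Col4a3 and Col4a4 the log2 fold changes were 0.10 and 0.06. Col15a1, a relative of Col18a1 in basement membranes of muscle and capillaries, read 7.70, 7.75, 7.82, 7.80 and 7.91 in WT and 7.81, 8.08, 7.79, 7.85 and 7.82 in CAR KO. CAR KO sample 2 stood above the rest, and the log2 fold change was 0.07 (95% confidence interval -0.08 to 0.22).

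Of the other 25 chains, 9 were higher and 16 lower in CAR KO, with a median log2 fold change of -0.023. Col6a1, Col6a2 and Col6a3 code for the chains of type VI collagen, which forms beaded microfilaments around cells. Col6a1 read 9.46, 9.37, 9.36, 9.57 and 9.33 in WT and 9.28, 9.59, 9.11, 9.28 and 9.20 in CAR KO. All CAR KO samples but sample 2 lay below the WT samples, and sample 2 was the highest of the 10. The log2 fold change of Col6a1 was -0.12 (95% confidence interval -0.32 to 0.07), and without CAR KO sample 2 it was -0.20, with an unadjusted p of 0.0141 and an adjusted p of 1.0 by limma. Col6a2 read 9.35, 9.37, 9.17, 9.42 and 9.25 in WT and 9.21, 9.47, 9.10, 9.27 and 9.10 in CAR KO (-0.08). Col6a3 read 7.74, 7.84, 7.67, 7.87 and 7.93 in WT and 7.69, 8.14, 7.57, 7.78 and 7.91 in CAR KO (0.01). CAR KO sample 2 was the highest of all samples in each of these chains as well. The log2 fold changes were 0.01 for Col6a4, -0.02 for Col6a5 and -0.06 for Col6a6. Col6a5 and Col6a6 had a second cluster each, with log2 fold changes of -0.06 and -0.11, and the second cluster of Col6a5 lay below background with a mean of 5.62.

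The FACIT chains, which sit on the surface of fibrils, numbered 9, with 4 higher and 5 lower. Col12a1, found on fibrils of tendon and other loaded tissue, read 8.0, 7.69, 8.38, 8.21 and 8.73 in WT and 8.26, 8.20, 7.62, 7.88 and 8.27 in CAR KO. The values spread over more than 1 log2 unit in WT, and the log2 fold change was -0.16 (95% confidence interval -0.56 to 0.25). Col14a1, a relative of Col12a1, read 7.80, 7.81, 7.76, 7.91 and 7.87 in WT and 7.79, 7.84, 7.38, 7.78 and 7.97 in CAR KO, with CAR KO sample 3 lowest (-0.08). Col9a1, which coats cartilage fibrils, read 8.78, 8.83, 9.23, 9.03 and 9.20 in WT and 8.95, 8.73, 8.79, 9.05 and 8.75 in CAR KO. Its WT samples 3 and 5 were the highest, and the log2 fold change was -0.16 (95% confidence interval -0.38 to 0.06). Col9a3 read 8.77, 8.91, 8.45, 8.64 and 8.53 in WT and 8.76, 8.75, 8.44, 8.88 and 8.23 in CAR KO (-0.05). The log2 fold changes of the remaining FACIT chains were -0.04 for Col9a2, 0.01 for Col16a1, 0.02 for Col19a1, 0.03 for Col20a1 and 0.07 for Col22a1, whose 95% intervals all crossed 0.

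Transmembrane collagens anchor cells to their surroundings. Col13a1 read 8.68, 8.77, 8.48, 8.62 and 8.36 in WT and 8.61, 8.67, 8.51, 8.85 and 8.25 in CAR KO (log2 fold change 0.00). Col23a1 read 9.28, 9.33, 9.20, 9.30 and 9.29 in WT and 9.25, 9.17, 9.15, 9.34 and 8.88 in CAR KO, with CAR KO sample 5 lowest (-0.12, 95% confidence interval -0.30 to 0.05). Col17a1, a component of hemidesmosomes, differed by -0.03, and Col25a1 by 0.07. Col7a1, the chain of the anchoring fibrils of skin, differed by 0.08. Of the short chain collagens, Col8a1 differed by 0.00 and Col8a2 by -0.11. Col26a1 had the largest difference of the 44. It read 9.45, 9.48, 9.60, 9.47 and 10.03 in WT and 9.50, 9.51, 9.42, 9.38 and 9.28 in CAR KO. WT sample 5 stood far above the rest, and the other WT samples lay between 9.45 and 9.60, partly above the CAR KO samples. The log2 fold change of Col26a1 was -0.19 (SE 0.11, unadjusted p = 0.103 and adjusted p = 1.0 by limma). Col28a1 read 6.74, 6.96, 6.72, 6.80 and 6.42 in WT and 6.75, 7.07, 6.57, 7.01 and 6.54 in CAR KO, close to background in every sample (0.06).

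The precision differed between chains. The SD within genotypes was 0.475 for Col1a1, higher than that of 98.7% of all clusters. It was 0.347 for Col1a2 and 0.342 for Col12a1, higher than 97.2% and 97.1% of clusters. At the other end, Col8a1 had an SD of 0.055, and 3.64% of clusters had a lower one. The 5 samples per genotype therefore bound the change of Col8a1 to between -0.12 and 0.11, but that of Col1a1 only to within about 1.5-fold.

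**Figure D3:**
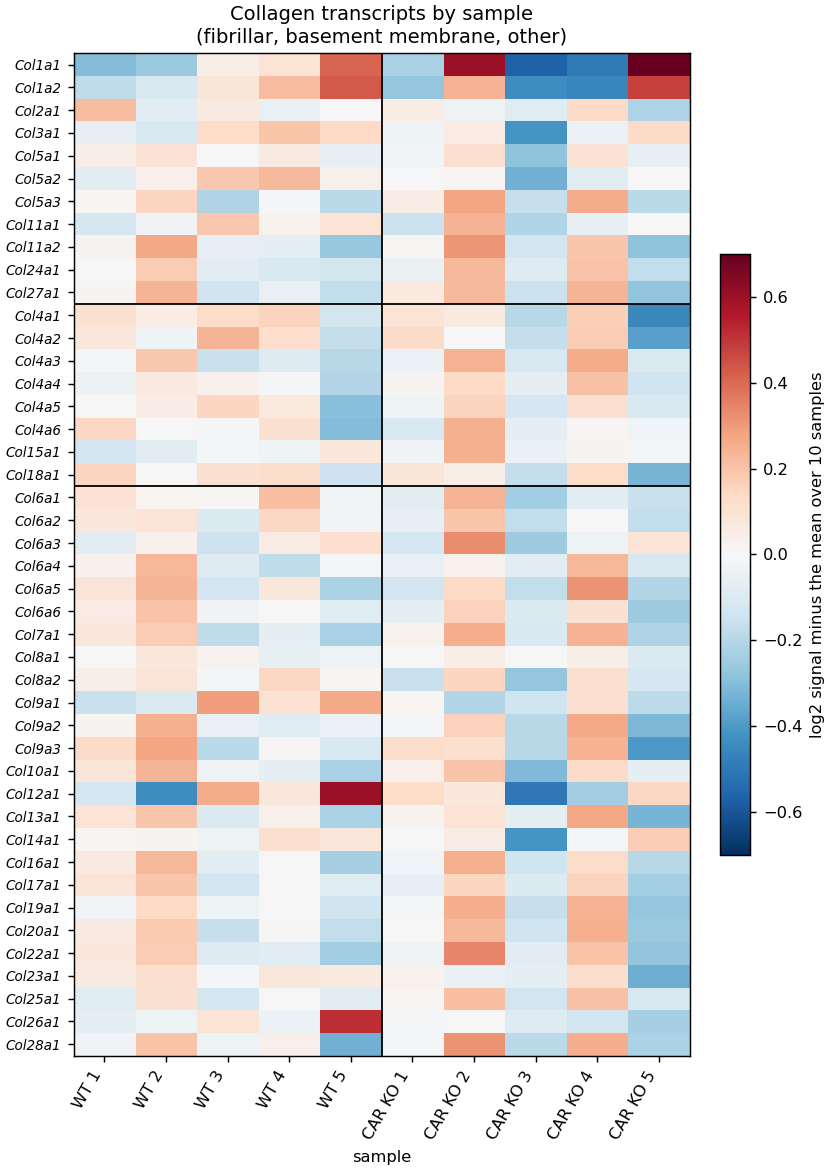
Log2 signal minus the mean over 10 samples (colour scale) for the 44 collagen genes (rows, divided into fibrillar, basement membrane and other) in each WT and CAR KO sample (columns). Col1a1 and Col1a2 are high in WT sample 5 and CAR KO samples 2 and 5, Col4a1 and Col4a2 are low in CAR KO sample 5, and many chains of the other class are high in WT sample 2 and CAR KO samples 2 and 4.

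Chains that assemble with each other were compared over the 10 samples in 11 pairs, by Pearson's r and Spearman's rho with permutation tests (100000 resamples, two-sided) and Benjamini-Hochberg adjustment over the pairs. The permutation tests of correlations, here and below, treat the 10 samples as exchangeable. Same-numbered samples of the genotypes deviated together to some degree, as described further on, so that these p-values may be too small. By either measure 5 of the 11 pairs passed the threshold: Col1a1 and Col1a2, Col4a1 and Col4a2, Col6a1 and Col6a2, Col4a3 and Col4a4, and Col4a5 and Col4a6. Of these, the pair of Col4a3 and Col4a4 did not hold once the mean of the receptor clusters was taken out, and that of Col4a5 and Col4a6 rested on a pair of samples. Col1a1 and Col1a2 had r = 0.947 (permutation p = 8e-05, adjusted p = 0.00055) and rho = 0.939 (permutation p = 0.00014, adjusted p = 0.00154), and without CAR KO samples 2 and 5, the farthest from the median, r was 0.977. Of all 28943 other clusters, Col1a2 had the highest r with Col1a1. Col4a1 and Col4a2 had r = 0.952 (permutation p = 0.0001, adjusted p = 0.00055) and rho = 0.915 (permutation p = 0.00052, adjusted p = 0.00286), and r = 0.894 without CAR KO samples 3 and 5. Col4a2 ranked 37 among the clusters by r with Col4a1. Col6a1 and Col6a2 had r = 0.909 (permutation p = 0.00037, adjusted p = 0.00136) and rho = 0.879 (permutation p = 0.00175, adjusted p = 0.00642), and r = 0.826 without CAR KO samples 2 and 3. Col6a2 ranked 4 by r with Col6a1, and these genes lie 85161 bases apart on chromosome 10.

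The other type IV pairs were weaker. Col4a3 and Col4a4, whose annotations share 114 bases on chromosome 1, had r = 0.847 (permutation p = 0.00132, adjusted p = 0.00363) and rho = 0.770 (permutation p = 0.0123, adjusted p = 0.0325), but 9.38% of clusters had a higher r with Col4a3. Without CAR KO samples 2 and 4 r was 0.638 (permutation p = 0.0881). Col4a5 and Col4a6 had r = 0.774 (permutation p = 0.00952, adjusted p = 0.0209) and rho = 0.758 (permutation p = 0.0148, adjusted p = 0.0325), and the relation rested on WT sample 5 and CAR KO sample 3, without which r was 0.448 (permutation p = 0.269). Col5a1 and Col5a2 had r = 0.631 (permutation p = 0.0736, adjusted p = 0.116) and rho = 0.273 (permutation p = 0.446, adjusted p = 0.613). That value rested on CAR KO samples 2 and 3, without which r was -0.006. Col6a1 and Col6a3 had r = 0.616 (permutation p = 0.0553, adjusted p = 0.101) and rho = 0.430 (permutation p = 0.215, adjusted p = 0.370), and without the same samples r was -0.011. The type VIII, IX and XI pairs had r between -0.060 for Col9a1 and Col9a3 and 0.304 for Col8a1 and Col8a2, with adjusted p from 0.541 to 0.867 in the permutation test. With the 4 samples richest in liver transcripts left out, 0 of 11 pairs passed among 6 samples, where r was 0.931 for type I, 0.903 for Col4a1 and Col4a2 and 0.926 for Col6a1 and Col6a2 (adjusted permutation p = 0.0509 for each).

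**Figure D4:**
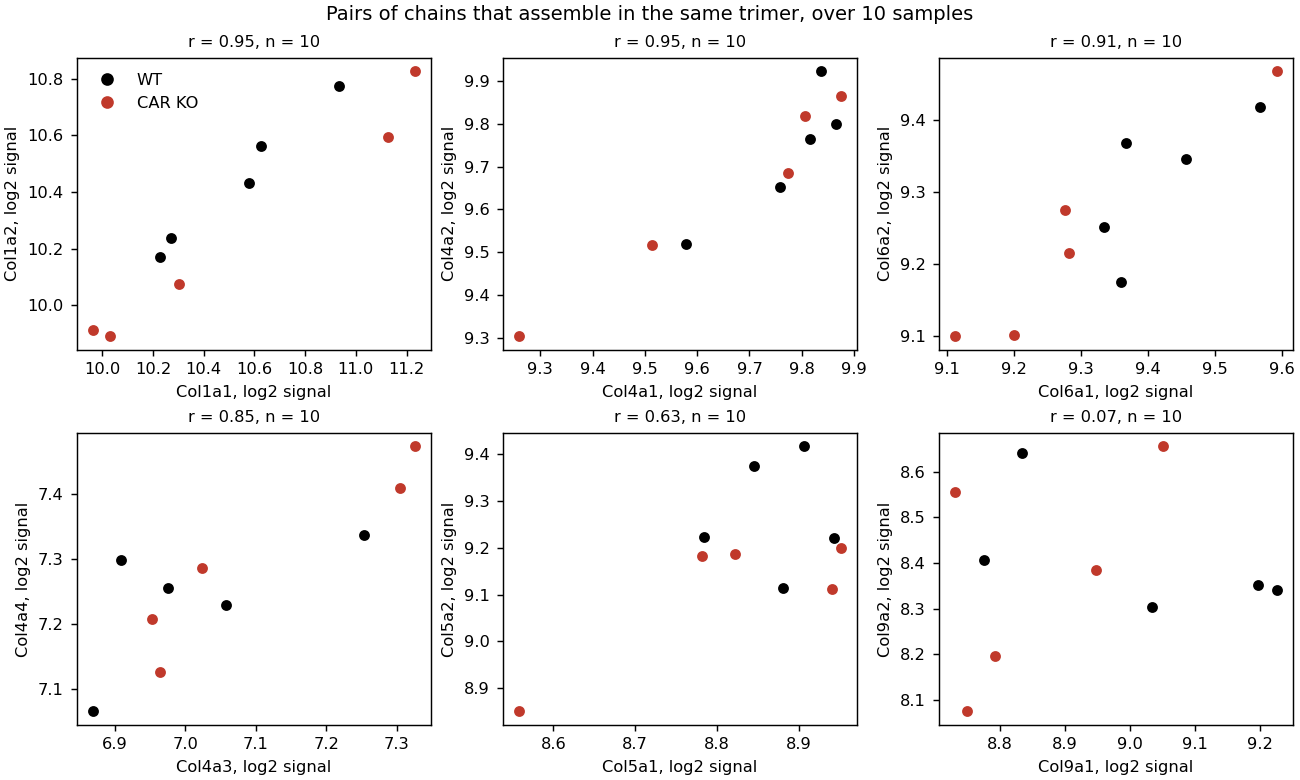
Log2 signals of 6 of the 11 pairs of partner chains, with the chain named first on the x axis and its partner on the y axis, in 5 WT and 5 CAR KO samples (points); r is Pearson's correlation over 10 samples. Points of the genotypes mix along the lines of type I (0.95) and of Col4a1 and Col4a2 (0.95). Along the line of Col6a1 and Col6a2 (0.91), all CAR KO samples but sample 2 lie below the WT samples in Col6a1. Col9a1 and Col9a2 show no line (0.07).

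The 44 chains did not all move as 1 group, but some chains of different classes varied closely together. Col11a2 and Col16a1 had r = 0.980 and Col24a1 and Col4a3 had r = 0.962. These chains all followed the receptor mean described below. Col18a1 followed Col4a1 with r = 0.981 over the 10 samples and Col4a2 with r = 0.954, whereas Col1a1 and Col4a1 had r = -0.436. Col3a1 varied with Col5a2 (r = 0.875) and Col14a1 (r = 0.890), both of which share its low value in CAR KO sample 3. These values are descriptions over 10 samples that share arrays and tissue composition.

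Many chains of the other class varied with the mean signal of the receptor clusters. The mean of the 1223 receptor clusters, most of which are silent outside sensory tissue, lay between 4.77 and 4.96 among the WT and between 4.77 and 5.003 among the CAR KO samples, and was highest in WT sample 2 and CAR KO samples 2 and 4. With genotype in the model, 21 of the 44 collagens followed this mean upwards at a limma adjusted p under 0.05 and 0 followed it downwards, where 24.2% of all clusters did the former and 9.86% the latter. They were 4 of 11 fibrillar chains, 2 of 8 basement membrane chains and 15 of 25 others. Col7a1 (r = 0.968 over 10 samples) and Col4a3 (r = 0.967) followed it most closely. Col1a1 (r = -0.390), Col1a2 (r = -0.510), Col3a1 (r = -0.247) and Col12a1 (r = -0.583) were among those that did not. This relation was examined after the values had been seen, and its part in the levels of these chains was not tested. After each chain was taken as its residual on the receptor mean, the r of Col4a3 and Col4a4 was -0.034, that of Col5a1 and Col5a2 was 0.911 (adjusted permutation p = 0.00234), and those of Col1a1 and Col1a2 (0.945) and Col4a1 and Col4a2 (0.954) moved little. For Col5a1 and Col5a2 the residuals were not compared without CAR KO samples 2 and 3, on which their r before had rested. The permutation test also takes no account of the shared fit on the receptor mean.

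**Figure D5:**
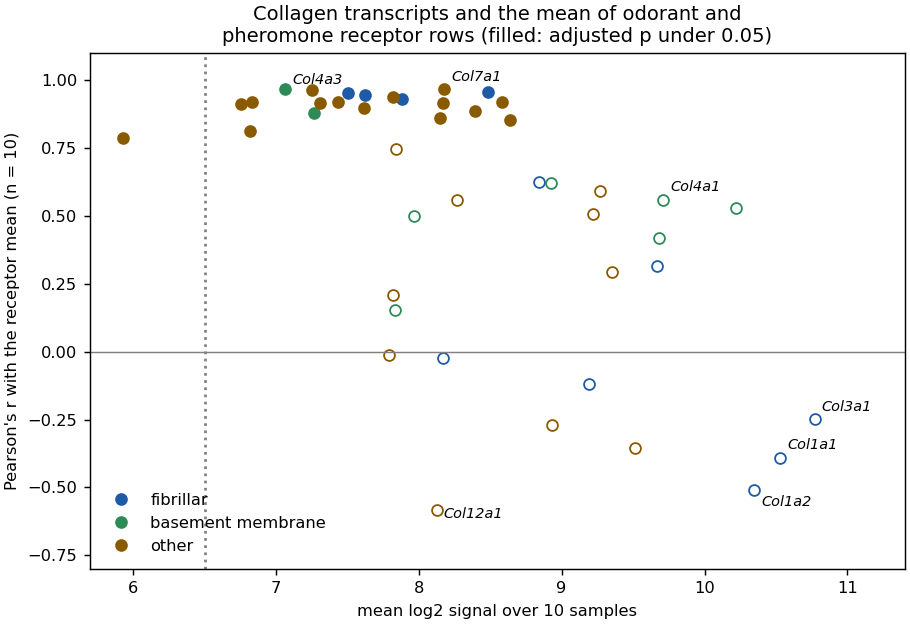
Pearson's r of each collagen with the mean of 1223 receptor clusters over 10 samples (y axis) against the mean log2 signal of its cluster (x axis), coloured by class; filled points passed an adjusted p of 0.05 in limma with genotype in the model, and the dotted line is the background level. The 21 filled points lie at r of 0.788 or more. Below 0 lie Col1a1, Col1a2, Col3a1, Col12a1, Col26a1, Col9a1 and Col5a2, and also Col11a1 and Col14a1, which lie close to 0.

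Levels of 7 chains were set beside 10 lists of cell type markers over the samples, 70 relations in all, of which 8 passed an adjusted p of 0.05 for Pearson's r and 1 for Spearman's rho. Col4a1 followed the mean of 12 cardiomyocyte markers, which lay between 12.97 and 13.20 (WT) or 12.84 and 13.21 (CAR KO), with r = 0.934 (permutation p = 0.0014, adjusted p = 0.0317) and rho = 0.952 (adjusted permutation p = 0.0105). Without CAR KO samples 3 and 5 its r was 0.954. Col4a2 (r = 0.895) and Col18a1 (r = 0.918) followed the same list, with permutation p of 0.00027 and 0.00076 (adjusted p = 0.0189 and 0.0266), and with r of 0.803 and 0.906 without those samples. The same chains followed the 10 markers of endothelium and endocardium, with r of 0.928 for Col4a1, 0.876 for Col4a2 and 0.892 for Col18a1 (permutation p from 0.00181 to 0.00279, adjusted p from 0.0317 to 0.0325), but with rho between 0.503 and 0.673. Without CAR KO samples 3 and 5 these r were between 0.670 and 0.794, with unadjusted permutation p from 0.0774 to 0.109, so that the relation rested on those samples. Against 9 markers of foregut epithelium, Col4a1 had r = -0.814 and Col18a1 r = -0.835 (permutation p = 0.00434 and 0.00336, adjusted p = 0.0380 and 0.0336), and r of -0.743 and -0.752 without those samples. By rank, rho with the foregut list was -0.709 and -0.818 (adjusted permutation p = 0.217 and 0.107), which did not pass. That list lay between 7.49 and 8.24 (WT) or 7.57 and 8.38 (CAR KO), with all 9 markers above background. The part of cell composition in the levels of these chains was not tested.

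Enzymes that make, fold and cross-link collagen showed no call either. Of 35 genes listed for biosynthesis 32 had a cluster, 31 of them above background. None was called, and 3 had an unadjusted p under 0.05 in limma, with 10 higher and 22 lower. Of all clusters, 2.4% had such a p and 43.9% were lower. P4ha3, a subunit of prolyl 4-hydroxylase, was 11.34 ± 0.21 in WT and 10.93 ± 0.31 in CAR KO (SD, n = 5 each), a difference of -0.40 on the log2 scale (95% confidence interval -0.71 to -0.09, limma adjusted p = 1.0). The prolyl 3-hydroxylases P3h2 and P3h3 differed by -0.25 (95% confidence interval -0.47 to -0.03) and -0.21 (95% confidence interval -0.41 to -0.02), and none of these differences passed the adjusted threshold. P4hb, the disulfide isomerase that is the other subunit of prolyl 4-hydroxylase, differed by 0.02 and Crtap, a partner of prolyl 3-hydroxylation, by -0.06.

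Of 22 collagen receptors and matrix partners 21 had a cluster, 20 of them above background. None was called, 2 had an unadjusted p under 0.05, and 5 were higher and 16 lower, beside 2.4% of all clusters at that p and 43.9% lower. Both of those are small leucine-rich proteoglycans that bind fibrils. Bgn was 12.92 ± 0.08 in WT and 12.69 ± 0.14 in CAR KO (SD, n = 5 each), a difference of -0.235 on the log2 scale (95% confidence interval -0.39 to -0.08, unadjusted p = 0.00754 and adjusted p = 1.0 by limma). Fmod differed by -0.33 (95% confidence interval -0.64 to -0.01). Nid1, the nidogen that ties type IV collagen to laminin, differed by -0.15 (95% confidence interval -0.31 to 0.02). Sparc, a collagen chaperone of the matrix, and Fn1, fibronectin, differed by -0.08 and -0.09. The interval lay within 1.5-fold for 28 of the 32 biosynthesis genes and for 18 of the 21 receptors and partners. No marker of the 10 cell type lists was called. An unadjusted p under 0.05 was found for 4 of 8 markers of epicardium, 2 of 5 of macrophages, 1 of 12 of cardiomyocytes, 1 of 10 of cushion mesenchyme and 0 in the other 6 lists, beside 2.4% of all clusters. The mean of the epicardial list lay between 9.97 and 10.20 (WT) or 9.62 and 10.13 (CAR KO). The part of the epicardium in these differences was not tested.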

How the data were processed

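Each of 10 samples, 5 per genotype, held RNA of 3 hearts pooled at E10.5, and the genotype was read from its label. The values are log2 signals in 1 table of 35556 rows, used as deposited by the authors. MAS5 is named by the submitters' processing notes, while for the step from scanner output to this table nothing is given in the sources used here. All sample columns were used. After 6612 control rows were left out, 28944 transcript clusters entered the comparison, made in R 4.3.3 by limma 3.58.1 (genotype as the only term of lmFit, then eBayes without trend or filter), with Benjamini-Hochberg adjustment over all of them and a threshold of 0.05. The procedure was tested on simulated data in which clusters varied independently, without the variation that many clusters share between samples here. Correlations were computed in Python 3.11.15 with numpy 2.4.6, and figures drawn with matplotlib 3.10.9. Single genes were also compared between genotypes by exact permutation tests. The number of arrays limits the precision.

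Gene names come from the platform annotation, and all 44 collagen genes matched RefSeq by Entrez identifier. The members, classes, pairs and lists were chosen with earlier results of these data known. Values per sample are given for 20 listed chains and for the 5 with the smallest p and the 5 with the largest SD. Of the other lists, the 3 brightest clusters and the 3 with the smallest p are named. Chains named outside this rule were chosen after their values were seen. As alternatives, samples were left out, the sample number entered as a block, arrays were weighted, quantile normalized or centred on their medians, and dim clusters (under the 40th percentile) or clusters naming several genes were removed. The prior was also given a trend and made robust, the test was run unmoderated, and a gene was represented by the mean of its clusters. Use of the receptor mean as a covariate or for residuals was added after the data were seen. Correlations between samples over all clusters lay between 0.987 and 0.998, and no samples held the same values.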

Additional observations from a re-analysis of the deposited data

Results flagged for a closer look

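Single samples stood apart from the others of their genotype in 3 of 50 groups of 5 samples examined (24 collagens and Cxadr), where chance gives 2.5 at its rate of 1 in 20. The measure is the gap between the extreme sample and its nearest neighbour, divided by the range of the group. For Col5a2 it was 0.747, for CAR KO sample 3, which read 8.85 where the next lowest read 9.11. For Col15a1 it was 0.781, for CAR KO sample 2, which read 8.08 where the other 4 read 7.79 to 7.85. For Col26a1 it was 0.726, for WT sample 5, which read 10.03 where the other 4 read 9.45 to 9.60.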

How the results depend on the processing

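No collagen gene was called under any alternative or with any sample left out, nor was any of the 32 biosynthesis genes or the 21 receptors and partners. The count of collagens at an unadjusted p under 0.05 was 0 in most settings, 3 with array weights (Col1a2, Col5a2 and Col8a2) and 3 with the receptor mean as a covariate (Col23a1, Col6a6 and Col8a2), a setting added after the data were seen. Over the whole array, 1811 clusters of 28944 had such a p with array weights and 1551 with the covariate. The collagen count ran from 0 to 2 with a sample left out: 2 without WT sample 1 (Col5a2 and Col9a1) and 1 without CAR KO sample 2 (Col6a1). Without those samples 768 and 628 of all clusters had such a p. The count with separate genotypes ran from 0 to 1, with Col5a2 and Col6a1 separating without those samples. With all samples, 0.359% of all clusters had separate genotypes. Values separate more easily with a sample left out, for which that share is not given. Intervals within 1.5-fold numbered 39 of 40 tested genes with dim clusters left out and 41 to 44 of 44 otherwise, Col1a2 being inside with quantile normalization, with clusters naming 1 gene and with the block. The number of collagens lower in CAR KO was 29 with centring, 37 with the receptor mean as a covariate, and 19 to 37 with a sample left out. In the main comparison it was 25, where 43.9% of all clusters were lower. The share of all clusters is not given for the alternatives. With a sample left out, class medians ran from -0.096 to 0.002 for fibrillar, -0.059 to 0.038 for basement membrane and -0.074 to 0.024 for other chains, and the pairs of partner chains past the threshold from 4 to 6. The pairs numbered 4 with quantile normalization, 6 on residuals, and 0 of 11 without the 4 samples richest in liver transcripts. On residuals the r of Col4a3 and Col4a4 turned to -0.034. For these changes the cause was not tested.

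When sample numbers entered as a replicate block, 0 collagens were called, 0 had an unadjusted p under 0.05 and 44 had an interval within 1.5-fold, while over the whole array 1 cluster was called and 1304 had an unadjusted p under 0.05. Same-numbered samples deviated together with correlations from 0.073 to 0.561, over 0.1 in 4 of 5 numbers, and the best match of a sample was the one with its own number for 4 of 5 CAR KO and 3 of 5 WT samples. This is a hint in the values only, since the labels state no pairing. The block was therefore not used in the comparison.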

Other observations

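The clusters most alike to some chains over the 10 samples, beside the partner chains, were listed by Pearson's r, a listing chosen after the values were seen and given without a test. For Col4a1 they included Nos3, the endothelial nitric oxide synthase (r = 0.980), and Adgrg6 (r = 0.976). For Col18a1 they included Nos3 (r = 0.978), Heg1, a receptor of endothelium and endocardium (r = 0.969), and Lama4, a laminin chain of vessel walls (r = 0.964). For Col12a1 they included Tnc, tenascin C (r = 0.956), the collagen endocytic receptor Mrc2 (r = 0.95) and Notch2 (r = 0.935). For Col3a1 they included Ncoa2, the closest (r = 0.928), Klf5 (r = 0.909) and Ror1 (r = 0.881). For Col1a1 they included the receptor Bmpr2 (r = 0.946), and for Col1a2 the Wnt binding protein Sfrp1 (r = 0.946). The genes named are a selection, and others stood about as close. Among them were Ccser2 (r = 0.978) and Kank1 (r = 0.977) for Col4a1 and Reep2 (r = 0.973) for Col18a1. Upk1a (r = 0.945) stood close to Col1a1. Ak5 (r = 0.953) and Ndst3 (r = 0.936, mean 5.94, below background) stood close to Col1a2. For Col6a1 the closest was Gpr180 (r = 0.917), and Nlrp6 (r = 0.990) was close to Col7a1.

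Lumican (Lum), a proteoglycan of fibrils, and Ddr2, a collagen receptor, were too variable between samples for a statement. The log2 fold change was 0.52 for Lum (95% confidence interval -0.69 to 1.74) and -0.21 for Ddr2 (95% confidence interval -0.97 to 0.54), and these genes were named after their values were seen. The cross-linking enzyme Lox had an interval from -0.81 to 0.15.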
